A study of Mus musculus with 4 samples.

Results

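Kinesins are motor proteins that use ATP to walk along microtubules or to take microtubule ends apart. One set builds and drives the mitotic spindle and the midzone that cytokinesis needs, another carries vesicles and organelles along axons and dendrites, and a further set serves intraflagellar transport in cilia and Hedgehog signalling. The embryonic ventral forebrain uses all of these at the same time, since its progenitors divide while their daughters migrate and grow processes. The genes described here are all those whose symbol in the deposited gene list has the form of a kinesin gene (Kif with a number and an optional letter, or Kifc with a number), 42 of 32285 genes. That rule uses symbols alone, but the members and the groups below were chosen with earlier results of these data known. Of the 42 genes, 14 were placed in a mitotic group, 14 in a group of axonal and vesicle transport, 9 in a ciliary and Hedgehog group and 5 in a group of other kinesins.

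They were read in single-cell RNA sequencing (10x Genomics droplets) of the medial ganglionic eminence (MGE) at e14.5, from mice labelled as a C57/BL6 ICR mix. Heterozygous parents gave whole-animal St18(-/-) embryos, called null here, and wildtype (WT) embryos, whose MGE were pooled by genotype, with 2 libraries for each genotype. St18 encodes a zinc finger transcription factor, and the comparison of null with WT asks what its loss changes in MGE progenitors and neurons. The study calls the libraries of a genotype biological replicates, and the number of embryos in a pool was not given. Lists of 4 values below run null replicate 1, null replicate 2, WT replicate 1, WT replicate 2.

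The 4 libraries held 70991150 to 92984713 unique molecular identifiers (UMIs, counted molecules), and 3758 to 6279 cells per library had at least 3000 UMIs, at most 10% mitochondrial UMIs and no high doublet score. Each pair of libraries shared 4 to 11 cell barcodes. St18 went against the label in 1 library: in neurons it stood at 24.96, 77.7, 44.7 and 59.6 UMIs per 1000000 UMIs of the class in that library (CPM), with the highest value in null replicate 2. Transcript from the deleted allele is described as persisting at a reduced level, so St18 checks the labels only in part, and null replicate 2 goes against that reduction. Whether this library is mislabelled or mixed was not tested. The X-linked Xist, which female cells transcribe, stood at 486 to 1621 CPM in the 3 cell classes of the null libraries, against 0 to 3 UMIs in all in those of the WT libraries. The Y-linked Ddx3y stood at 22.8 and 10.7 CPM in neurons of null and at 34.4 and 33.5 CPM in those of WT, and Xist at 589 and 1465 CPM in neurons of null. The null pools thus held embryos of both sexes, in unlike proportions, while the WT pools held next to no Xist. Genotype and the sex mix of the pools therefore cannot be told apart. Libraries are named by their genotype label throughout, and replicate numbers were given here by sample order in the deposit.

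Cells were sorted into 3 classes by clustering that left out all 42 kinesin genes. Dividing progenitors were 1346, 725, 874 and 782 cells, other progenitors 1514, 830, 961 and 800 cells, and neurons 3163, 1980, 2340 and 2155 cells. Dividing progenitors were 21.4%, 19.3%, 20.1% and 20.1% of the kept cells. The 7 neuron markers summed to 5289 to 5972 CPM in neurons and 1136 to 1511 in both progenitor classes. The 17 markers of dividing cells summed to 13890 to 14460 CPM in dividing progenitors, 5425 to 6244 in other progenitors and 674 to 793 in neurons. Other progenitors thus also held cycling cells, 2 of their clusters being led by S phase genes such as Cdc6 and Mcm6. Another 1.83% to 4.10% of cells lay in 3 clusters with neuron markers beside at least 8 of the 17 markers of dividing cells, 1 of them with pallial markers too, and were left out. Erythroid markers reached 602 CPM in other progenitors of null replicate 1 and 2749 CPM in those of WT replicate 2, against 76.6 and 93.6 in the other libraries.

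For 33 of the 42 kinesin genes, RefSeq promoter windows (GRCm38.p6, 250 bases before to 50 bases after the transcript start) were available. Genes that peak in G2 and M phase often carry the letters TTTGAA close to the start, known as the cell cycle genes homology region, which cell cycle repressor and activator complexes bind, and CCAAT boxes, which NF-Y binds. TTTGAA on either strand lay in 11 of the 13 mitotic kinesin windows, in 1 of 11 windows of the transport group (8 genes), in 1 of 9 ciliary windows (8 genes) and in 17.9% of all 32851 windows. CCAAT lay in 9 of 13 mitotic windows, 2 of 11 transport windows, 4 of 9 ciliary windows and 37.4% of all windows. The other letters searched were TTCGAA, TTTGGCGC and TTTCGCGC, which lay in 1, 2 and 0 mitotic windows and in 1.56%, 0.514% and 0.323% of all windows. In the 100 bases from 70 before to 30 after the start, TTTGAA lay in 8 of 13 mitotic windows against 5.11% of all windows, and CCAAT in 7 of 13 against 16.1%. Some windows lie inside the annotated gene and not at its first base, among them the Kif14, Kif2c, Kif1a and Kif27 windows with TTTGAA. A match is a description of letters and does not show a bound site.

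These 8 stretches are shown because they are the mitotic ones with TTTGAA inside those 100 bases. The first base of the match lay between 19 bases before and 20 bases after the start, on either strand. Each runs 5′ to 3′ on the strand of its gene, with TTTGAA or CCAAT, or their reverse complements TTCAAA or ATTGG, in capitals. Kif11 lies at chr19:37376312-37376411 (+), Kif23 at chr9:61946770-61946869 (-), Kif4 at chrX:100625995-100626094 (+), Kif15 at chr9:122951011-122951110 (+), Kif20b at chr19:34922288-34922387 (+), Kif22 at chr7:127042391-127042490 (-), Kif18b at chr11:102925095-102925194 (-) and Kifc1 at chr17:33890604-33890703 (-).
Kif11: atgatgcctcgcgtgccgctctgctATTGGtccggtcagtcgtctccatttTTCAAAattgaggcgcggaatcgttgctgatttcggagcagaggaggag
Kif23: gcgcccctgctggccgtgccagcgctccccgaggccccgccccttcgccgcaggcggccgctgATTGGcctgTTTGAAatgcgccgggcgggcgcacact
Kif4: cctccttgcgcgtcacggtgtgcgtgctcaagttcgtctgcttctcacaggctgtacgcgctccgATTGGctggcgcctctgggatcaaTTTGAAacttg
Kif15: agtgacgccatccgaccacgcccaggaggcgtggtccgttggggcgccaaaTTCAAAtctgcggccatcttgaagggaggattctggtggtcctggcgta
Kif20b: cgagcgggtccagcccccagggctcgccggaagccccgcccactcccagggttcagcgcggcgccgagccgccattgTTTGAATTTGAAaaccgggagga
Kif22: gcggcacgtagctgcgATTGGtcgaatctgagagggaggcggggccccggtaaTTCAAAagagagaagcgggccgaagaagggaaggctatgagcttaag
Kif18b: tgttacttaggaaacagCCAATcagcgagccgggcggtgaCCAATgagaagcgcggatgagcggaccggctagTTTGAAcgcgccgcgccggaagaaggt
Kifc1: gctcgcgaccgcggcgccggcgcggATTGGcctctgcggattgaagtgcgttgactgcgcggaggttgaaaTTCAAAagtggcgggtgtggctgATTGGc

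The same stretch of Kif18a, 1 of 2 mitotic kinesins without TTTGAA anywhere in the 300-base window (the other is Kif24), and that of Kif5c, the transport kinesin described at most length below, hold neither set of letters. Kif18a lies at chr2:109280668-109280767 (+) and Kif5c at chr2:49619216-49619315 (+).
Kif18a: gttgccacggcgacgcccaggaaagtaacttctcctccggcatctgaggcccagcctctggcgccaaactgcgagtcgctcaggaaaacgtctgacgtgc
Kif5c: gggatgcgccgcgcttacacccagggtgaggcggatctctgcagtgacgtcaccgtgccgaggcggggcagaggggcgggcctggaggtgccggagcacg

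Of the 42 genes, 37 had at least 10 UMIs in every library over the 3 classes and enter the counts below. The other 5 were Kif19a with 41 UMIs in all, Kif17 with 26, Kif12 and Kif28 with 1 each, and Kif2b with 0. The 42 genes together gave 359093 UMIs. A gene was counted as higher or lower in a class when the ratio of CPM was at least 2-fold the same way within all 4 libraries. The classes came from clusters of the same cells and were named partly from markers of dividing cells, so the class ratios carry no p-value, and the share of all genes past the same rule stands beside each count.

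**Figure D1:**
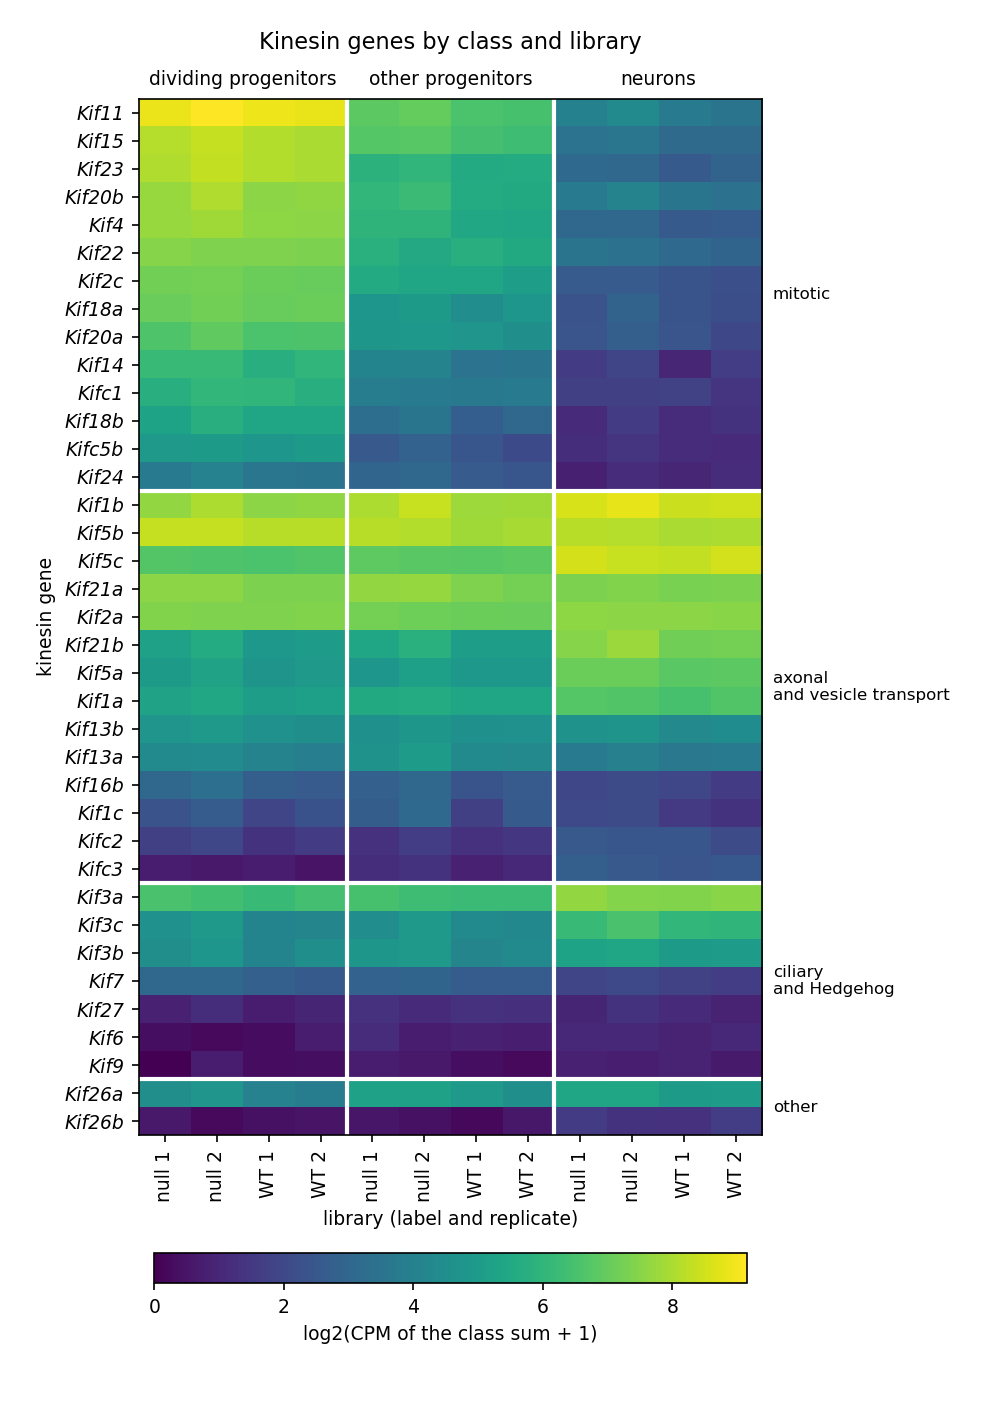
Levels of the 37 kinesin genes with enough UMIs (rows, by role group) in 4 libraries of each of 3 cell classes (columns), as log2 of CPM plus 1. The mitotic genes are brightest in dividing progenitors and darkest in neurons.

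Mitotic kinesins were lower in steps from dividing progenitors to other progenitors to neurons. Between dividing and other progenitors, 13 kinesins were higher and 0 lower, against 1.95% and 1.21% of all 13936 genes, and all 13 belonged to the mitotic group of 14. Against neurons, all 14 mitotic kinesins were higher in dividing progenitors and all 14 in other progenitors. Counted over all role groups, 16 kinesins were higher and 8 lower in dividing progenitors than in neurons (11.0% and 11.7% of all genes). In other progenitors 15 were higher and 8 lower than in neurons (11.8% and 10.1%). The median log2 ratio of the mitotic group was 2.10 between dividing and other progenitors, 4.88 between dividing progenitors and neurons and 2.58 between other progenitors and neurons, where the medians of all genes were -0.07, -0.11 and -0.04.

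Kif11 encodes the motor that pushes the spindle poles apart. It stood at 465, 566, 477 and 454 CPM in dividing progenitors and at 113, 126, 92.9 and 89.3 CPM in other progenitors. In neurons it was at 15.1, 19.2, 13.0 and 10.6 CPM. Each class lay wholly apart from the next, with a 4.69-fold difference between dividing and other progenitors (log2 2.23 ± 0.15, SD, n = 4 libraries). By cells, 87.8% to 97.2% of dividing progenitors and 5.20% to 13.1% of neurons had at least 1 Kif11 UMI, at median depths of 9223 to 14902 and 5486 to 8120.5 UMIs. With every cell thinned to 3000 UMIs these shares were 63.7% to 74.6% and 2.51% to 5.15%. Free RNA can give such UMIs in cells that do not express the gene, and its level is given with the group sums below.

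Kif15, the other motor that can hold spindle poles apart, was at 282, 327, 270 and 254 CPM in dividing progenitors and 105, 109, 85.5 and 77.7 CPM in other progenitors. Its ratio between them, 3.02-fold (log2 1.59 ± 0.12), was among the smaller ones of the group. Kif23, a subunit of centralspindlin at the midzone, was at 266, 312, 271 and 254 CPM in dividing progenitors and 58.3, 64.0, 46.9 and 47.8 CPM in other progenitors. In neurons Kif23 read 4.97 to 7.73 CPM and Kif15 7.86 to 10.9 CPM.

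The other midzone and cytokinesis kinesins followed the same order. Kif20a, which carries the chromosomal passenger complex to the midzone, had 99.1, 121, 93.1 and 94.9 CPM in dividing progenitors and 28.0, 28.3, 26.3 and 22.4 in other progenitors. Kif20b, needed for abscission in cortical progenitors, had 214, 262, 187 and 198 CPM and then 66.0, 74.8, 48.5 and 46.3. Kif4, a chromokinesin that also limits the length of midzone microtubules and lies on the X chromosome (chrX:100625737-100727214), had 213, 226, 193 and 187 CPM and then 61.3, 60.6, 44.0 and 42.0. Kif14, which recruits citron kinase to the midbody, had 71.8, 73.2, 53.3 and 64.5 CPM and then 16.4, 16.2, 10.1 and 10.4. In all 4 genes dividing progenitors stood more than 2-fold above the other progenitors of their own library. In neurons these 4 lay between 0.964 and 16.2 CPM.

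Kinesins that act on chromosomes and microtubule ends were also counted as higher in dividing than in other progenitors. Kif22, a chromokinesin, was at 177, 164, 165 and 162 CPM in dividing progenitors and 55.5, 45.2, 52.5 and 46.1 in other progenitors. Kif2c, a depolymerase at centromeres, was at 146, 148, 136 and 128 CPM and then 46.7, 41.9, 40.8 and 33.7. Kif18a, which dampens chromosome movements at the metaphase plate, was at 131, 147, 128 and 134 CPM and then 27.2, 30.3, 21.1 and 27.3. Its relative Kif18b was at 38.4, 54.0, 42.0 and 41.0 CPM and then 8.98, 10.8, 5.66 and 7.25. Kif22 and Kif2c differed 3.36-fold and 3.43-fold between the progenitor classes, and Kif18a and Kif18b 5.12-fold and 5.43-fold. The 4 genes read 1.19 to 10.6 CPM in neurons.

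The minus-end directed motor Kifc1, which focuses spindle poles, was at 52.1, 66.4, 63.1 and 52.9 CPM in dividing progenitors and 13.3, 12.3, 11.98 and 12.9 in other progenitors. Kifc5b, a close copy of Kifc1 on the same chromosome, was at 29.3, 30.4, 27.1 and 30.5 CPM and then 4.95, 6.32, 4.44 and 3.11. The promoter windows of the pair share a run of 68 identical bases, and reads that match both genes could not be assigned, so their separate levels are uncertain. Kif24, which removes microtubules at the mother centriole and holds back cilium formation, was the 1 mitotic member not counted as higher in dividing than in other progenitors. It had 12.6, 15.6, 11.1 and 10.5 CPM in dividing and 6.92, 7.52, 5.12 and 4.49 CPM in other progenitors, a mean ratio of 2.07 (log2 1.05 ± 0.15) with single libraries on both sides of 2-fold.

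In droplets with fewer than 100 UMIs, which hold free RNA, the 14 mitotic kinesins summed to 598, 542, 537 and 440 CPM. Their sums in neurons were 84.4, 98.1, 68.8 and 65.1 CPM, below the free RNA in every library. In other progenitors they summed to 611, 633, 496 and 471 CPM, close to the level of the free RNA, and in dividing progenitors to 2197, 2512, 2117 and 2065 CPM. By gene, the mean in other progenitors lay below the mean in free RNA for Kif2c, Kif11, Kif14, Kif18b, Kif20a, Kif22, Kif23, Kifc1 and Kifc5b, by less than 1 CPM for Kif11 and Kif20a. A neuronal level of the mitotic kinesins was therefore not distinguishable from free RNA at this depth, so the size of a ratio to neurons is uncertain. For the genes just named, the size of the ratio of dividing to other progenitors is uncertain for the same reason.

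**Figure D2:**
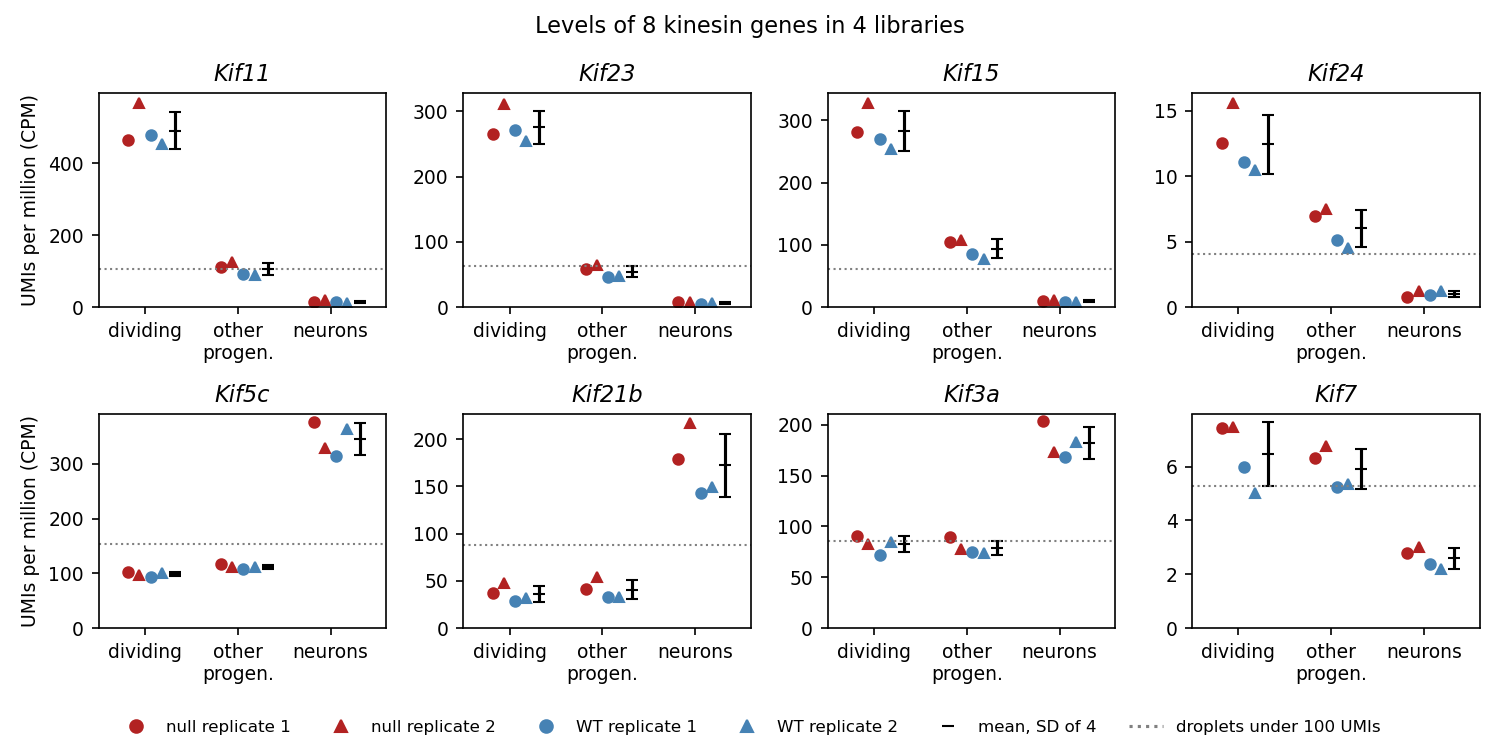
Level of 8 kinesin genes (CPM of the class sum, linear axes from 0) by cell class, with 1 point per library coloured by label, the mean and SD of the 4 libraries in black and the mean level in droplets under 100 UMIs as a dotted line. Kif11, Kif23, Kif15 and Kif24 step down from dividing progenitors to neurons, Kif5c, Kif21b and Kif3a are higher in neurons, and Kif7 is lower there.

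Within the progenitors, most mitotic kinesins peaked in 1 cluster. Cluster 8, led by Tuba1c, Gas2l3, Aspm, Ube2c, Cdc20 and Cenpf, had the highest score for G2 and M phase genes. Kif2c was at 261 CPM there (232 to 278 over libraries), and at 97.0 to 118 CPM in the other 3 dividing clusters. Kif20a was at 172 CPM in cluster 8 (157 to 191) and at 69.0 to 95.7 in the others. Kif20b was at 331 CPM (293 to 370) against 138 to 222. Kifc1 was at 96.6 CPM (87.2 to 106) against 36.4 to 57.0. For Kif2c, Kif20a and Kifc1 the lowest library of cluster 8 was above the highest library of each other dividing cluster.

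Kif15 ran the other way, at 222 CPM in cluster 8 (185 to 249) and 293 to 312 CPM in clusters 3, 4 and 15. Clusters 3 and 4 were led by replication-dependent histone genes and cluster 15 by Rgcc and Hes5. Kif24 was also lowest in cluster 8 among the dividing clusters, at 8.06 CPM against 12.1 to 16.8, though it rested there on 75 UMIs. Among the other progenitors, the S phase cluster 12 held the least Kif11 (40.1 CPM) and cluster 17 the most (184 CPM, 163 to 209 over libraries). Cluster 7 overlapped it, at 176 CPM (123 to 212). Cluster 17 had the lowest depth of the progenitor clusters, a median of 4204 UMIs. These clusters came from the same cells, and the differences are given as a description.

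**Figure D3:**
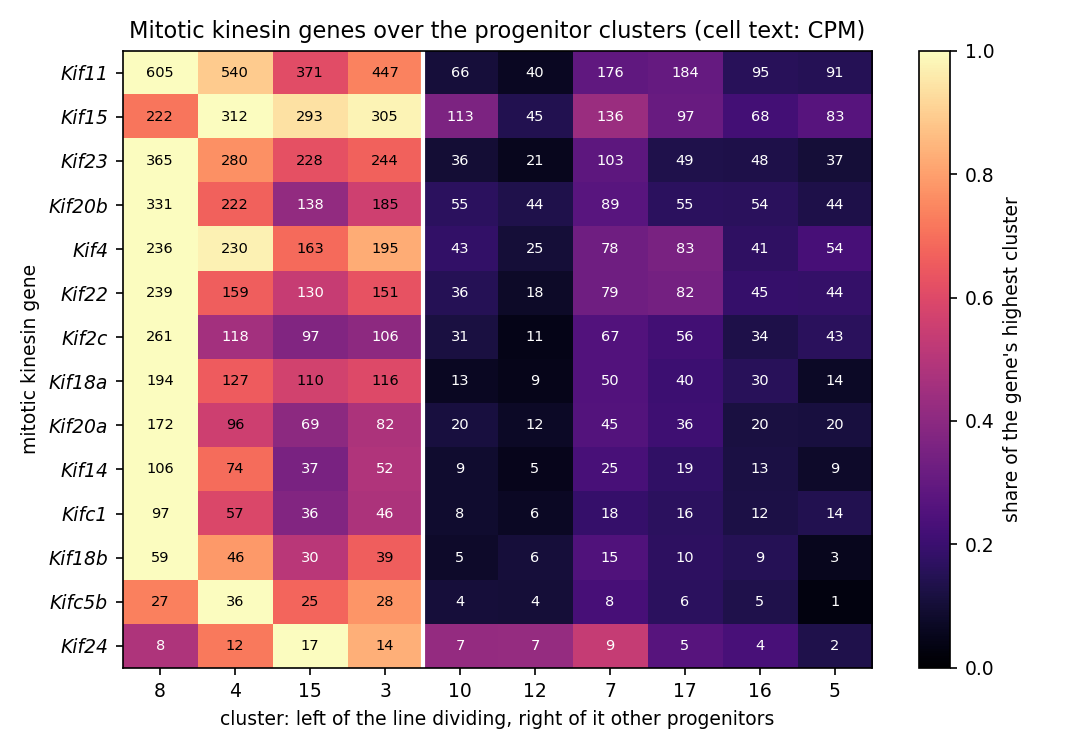
Level of the 14 mitotic kinesin genes (rows) in the 4 dividing clusters and the 6 clusters of other progenitors (columns), with CPM over all libraries written in each cell and colour giving the share of the gene's highest cluster. Of the 14 genes, 11 are highest in cluster 8, while Kif15 and Kifc5b are highest in cluster 4 and Kif24 in cluster 15.

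Partners of the mitotic kinesins on the spindle and midzone showed the same step. Unlike the kinesins, the partner genes here and below were not left out of the clustering that made the classes. Their step is therefore a description and no separate support for that of the kinesins. Of 14 listed genes found in the files, 13 were at least 2-fold higher in dividing than in other progenitors, and 13 were higher in each progenitor class than in neurons, against 1.95%, 11.0% and 11.8% of all genes. The exception each time was Numa1, a spindle pole protein. Cenpe, among the genes counted, is itself a mitotic kinesin whose symbol lacks the form used here. Aurkb, the kinase of the chromosomal passenger complex, was at 182 ± 10.5 CPM (mean and SD over 4 libraries) in dividing and 34.4 ± 3.73 CPM in other progenitors. Aurka, the spindle pole kinase, was at 110.1 ± 9.10 and 22.8 ± 4.40 CPM. Prc1, which bundles midzone microtubules, was at 803 ± 68.8 and 173 ± 28.5 CPM, and Incenp, the scaffold of the passenger complex, at 291 ± 38.4 and 68.9 ± 17.5 CPM.

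Transport kinesins showed no such step between the progenitor classes. None of the 14 was counted as higher or lower in dividing than in other progenitors, and the median log2 ratio was -0.10. Against neurons, 5 were lower in both progenitor classes (Kif1a, Kif5a, Kif5c, Kif21b and Kifc3), and Kif16b was higher in dividing progenitors. Of all genes, 11.7% and 10.1% were lower in dividing and in other progenitors than in neurons, and 11.0% were higher in dividing progenitors. The sum over the group was 1150, 1228, 1031 and 1061 CPM in dividing progenitors and 1880, 1919, 1639 and 1736 CPM in neurons.

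The 3 heavy chains of kinesin-1, the main anterograde axonal motor, split by class. Kif5c (chr2:49619298-49774778) was at 376, 330, 314 and 363 CPM in neurons, at 116, 111, 108 and 112 in other progenitors and at 103, 98.0, 93.2 and 100.4 in dividing progenitors. Neurons lay 3.08-fold above other progenitors (log2 of other progenitors to neurons -1.62 ± 0.08), with no overlap between libraries. Within neurons Kif5c ran from 187 to 815 CPM over clusters, as described below. Kif5a (chr10:127225696-127263348), the neuronal heavy chain that is mutated in human spastic paraplegia, was at 136, 135, 111 and 114 CPM in neurons, 26.9, 35.1, 28.7 and 28.7 in other progenitors and 30.4, 37.3, 25.6 and 30.2 in dividing progenitors. Kif5b, the ubiquitous heavy chain, was in no class 2-fold apart from another, with 285 to 326 CPM in dividing progenitors, 228 to 284 in other progenitors and 254 to 289 in neurons.

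Kif1a (chr1:93015464-93101951), the motor of synaptic vesicle precursors, was at 104, 101, 87.9 and 101 CPM in neurons. It was at 46.2, 48.8, 42.0 and 40.9 CPM in other progenitors and 37.9, 43.2, 33.7 and 35.0 in dividing progenitors. Within neurons Kif1a ran from 66.0 CPM in cluster 1 to 156.5 CPM in cluster 21, so not every neuron cluster was 2-fold above other progenitors. Its relative Kif1b, a motor of mitochondria and vesicles, had 224 to 328 CPM in other progenitors and 341 to 448 in neurons and was not counted. Kif21b (chr1:136131389-136177998), which slows microtubule growth in neurons, was at 179, 217, 143 and 150 CPM in neurons, 42.0, 54.4, 33.4 and 33.5 in other progenitors and 37.1, 48.2, 28.8 and 32.3 in dividing progenitors. That is a 4.24-fold step from other progenitors to neurons (log2 of other progenitors to neurons -2.08 ± 0.07). Its relative Kif21a had 159.5 to 187, 150.1 to 208 and 155 to 169.8 CPM in dividing progenitors, other progenitors and neurons, so that the class ranges overlapped.

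Kif2a, a depolymerase that trims axon branches, was at 164 to 169 CPM in dividing progenitors, 133 to 149 in other progenitors and 181 to 194 in neurons. The differences were under 2-fold, though the ranges of the classes did not meet. Kifc3 was low in every class, at 0.398 to 0.675 CPM in dividing progenitors, 0.808 to 1.52 in other progenitors and 4.30 to 5.79 in neurons, where free RNA gave 4.80 CPM. Kif16b, a motor of early endosomes, was at 5.17 to 9.05 CPM in dividing progenitors and 2.02 to 3.38 in neurons. Kif13a and Kif13b stood at 14.2 to 20.4 and 22.4 to 29.1 CPM in dividing progenitors and were counted in no comparison, as were Kif1c and Kifc2, both under 8 CPM throughout.

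**Figure D4:**
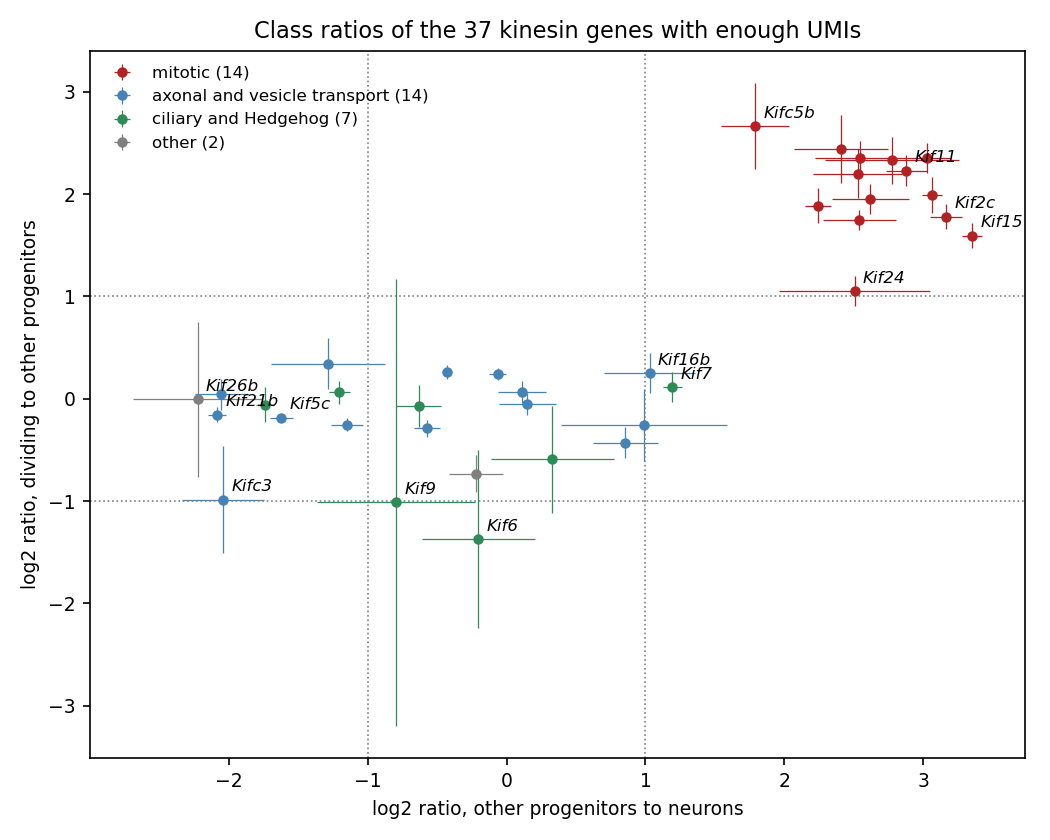
Mean log2 ratio of CPM within libraries, other progenitors to neurons (horizontal) against dividing to other progenitors (vertical), for the 37 kinesin genes, with SD over the 4 libraries as bars and dotted lines at 2-fold. The mitotic genes stand alone at the upper right, and no gene of another group has a mean above 2-fold on the vertical axis.

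Some transport kinesins differed between clusters within the progenitor classes, and not all in the same direction. Kif21b was at 84.2 CPM (65.0 to 113 over libraries) in cluster 5, led by Dll1, Dll3 and the histone gene Hist1h2bc, and at 69.5 CPM (52.1 to 95.9) in the S phase cluster 12. It was at 9.44 CPM (7.70 to 11.4) in cluster 15 and 16.0 CPM (10.3 to 21.5) in cluster 7, both of which carry Hes genes among their leading genes. The ranges of the 2 pairs did not meet. Kif5a was at 52.6 and 54.0 CPM in clusters 5 and 12 against 15.7 and 17.9 in clusters 15 and 7. Kif5c was at 154 and 152 CPM against 70.2 and 83.8, and Kif3c of the ciliary group at 38.3 and 36.0 CPM against 11.3 and 11.95. Kif21a ran the other way, at 113 and 133 CPM in clusters 5 and 12 against 243 and 269 in clusters 15 and 7, and so did Kif13a, at 11.4 and 16.2 CPM against 28.8 and 35.1 with ranges that met. Kif5b, at 296 and 297 against 280 and 245 CPM, and Kif1b, at 226 and 258 against 257 and 326 CPM, had overlapping ranges between the pairs. Tubb3, a neuronal tubulin, ran in the direction of Kif21b, at 1100 and 1002 CPM in clusters 5 and 12 and at 138 and 156 CPM in clusters 15 and 7. Between these pairs, mitotic kinesins ran opposite to Kif21b. Kif11 was at 90.8 and 40.1 CPM in clusters 5 and 12 against 371 and 176 CPM in clusters 15 and 7. Kif23 was at 37.2 and 21.3 against 228 and 103 CPM. Of these clusters only 15 is a dividing cluster. Over the dividing clusters 8, 4, 3 and 15 Kif21b instead fell along with most mitotic kinesins, at 63.3, 52.2, 24.1 and 9.44 CPM. Kif11 was there at 605, 540, 447 and 371 CPM, and Kif23 at 365, 280, 244 and 228 CPM. Kif15, Kif24 and Kifc5b did not follow that order. Kif15 was at 222, 312, 305 and 293 CPM and Kif24 at 8.06, 12.1, 13.95 and 16.75 CPM. Kifc5b was at 26.6, 36.2, 28.2 and 24.6 CPM. In free RNA Kif21b stood at 87.8 CPM, Kif5a at 64.1, Kif5c at 153, Kif1a at 55.9 and Kif3c at 37.9 CPM (means of 4 libraries). The class means of these 5 genes lay below those values in both progenitor classes and above them in neurons, and the part of free RNA in the differences between progenitor clusters was not tested. Kif3a lay close to its level in free RNA, 85.4 CPM, in both progenitor classes.

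Neuron clusters differed in Kif5c and in Kif26a, a kinesin without motor activity that acts in growth factor signalling. Kif5c was at 187 to 243 CPM in clusters 0, 1, 2 and 9, at 287 CPM in cluster 14 and 395 CPM in cluster 6. In clusters 11, 13, 18, 21 and 23 it was at 571 to 815 CPM, with a lowest library of 513 CPM. Cluster 13, which carried markers of the lateral ganglionic eminence (Ebf1 and Isl1 lead it), had the highest level, 715 to 962 CPM over libraries. The lower clusters were led by Epha5, Maf and Nxph1 (cluster 0), St18, Nav2 and Tiam2 (cluster 1), Rprm and Npy (cluster 2) and Shh, Zic1 and Lhx8 (cluster 9).

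Kif26a reached 162 CPM (124 to 179) in cluster 13 and 88.6 CPM in cluster 21, led by Six3os1 and Six3. It was at 9.48 CPM (6.29 to 10.5) in cluster 0. Over the 11 neuron clusters, Kif21a ran from 114 to 271 CPM, Kif2a from 139 to 243 and Kif5b from 236 to 344, narrower spans than that of Kif5c. Tubb3 was at 1636 to 2416 CPM over the same clusters, and at 2374 CPM in cluster 13 and 2180 CPM in cluster 0.

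Some adaptors and light chains of transport kinesins were lower in progenitors. Of 22 listed genes found in the files, 0 were higher and 6 lower in dividing progenitors than in neurons, and 0 higher and 8 lower in other progenitors, with median log2 ratios of -1.01 and -0.74, where 11.7% and 10.1% of all genes were lower. Klc3 and Fez2 had mean log2 ratios above 0, at 0.58 and 0.30 in dividing and 0.50 and 1.12 in other progenitors, as did Ppfia1 at 0.16 and 0.02, and Trak1 at 0.10 in other progenitors alone. Kifap3, the adaptor of kinesin-2, was at 223 ± 20.1 CPM in neurons and 83.5 ± 4.57 in other progenitors. Ppfia2, a liprin of synaptic vesicle cargo, was at 36.4 ± 2.99 and 5.13 ± 0.615 CPM, Clstn3, a calsyntenin, at 14.4 ± 1.68 and 3.48 ± 0.899 CPM, and Madd, an adaptor of Kif1 motors, at 43.4 ± 6.93 and 14.4 ± 3.70 CPM. Of 15 genes of the retrograde dynein motor, 1 was higher in each progenitor class than in neurons and 0 were lower, where 11.0% and 11.8% of all genes were higher, and the median log2 ratios of the list were -0.62 and -0.52. The gene counted was Nde1, which places the spindle of neural progenitors and was at 117 ± 8.78 CPM in dividing progenitors, 72.7 ± 7.28 in other progenitors and 8.29 ± 1.26 in neurons.

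Among ciliary and Hedgehog kinesins, Kif3a and Kif3c of kinesin-2 were counted as higher in neurons than in both progenitor classes. Of 7 with enough UMIs, these 2 were lower and 1 was higher in each progenitor class than in neurons. Of all genes, 11.7% and 10.1% were lower, and 11.0% and 11.8% higher, in dividing and in other progenitors. Kif3a (chr11:53567379-53601967), the common subunit of the heterotrimeric motor of intraflagellar transport, was at 204, 173, 168 and 183 CPM in neurons, 89.4, 78.0, 74.7 and 73.6 in other progenitors and 90.4, 82.3, 71.9 and 85.2 in dividing progenitors. Kif3c (chr12:3365132-3406494), a subunit found mainly in neurons, was at 72.3, 90.7, 65.8 and 62.9 CPM, then 21.2, 29.0, 19.4 and 18.1, then 23.6, 28.8, 16.3 and 16.7. Neurons lay above both progenitor classes without overlap in both genes, 2.30-fold and 3.34-fold above other progenitors. Kif3b, the partner of Kif3a in cilia, was at 30.5 to 41.1 CPM in neurons and 17.1 to 28.9 in other progenitors, under 2-fold.

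Kif7, which organises the ciliary tip and tunes Gli proteins in Hedgehog signalling, was at 7.43, 7.47, 5.97 and 5.04 CPM in dividing progenitors, 6.31, 6.75, 5.25 and 5.35 in other progenitors and 2.77, 3.03, 2.37 and 2.18 in neurons. Along with Kif16b it was the only kinesin outside the mitotic group counted as higher in a progenitor class. Its level in free RNA, 5.30 CPM, was near that of the progenitors. Kif27 and Kif6 were under 1.6 CPM in every class and library, as was Kif9, and Kif26b was at 1.48 to 2.18 CPM in neurons and under 0.6 CPM in progenitors.

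Null was compared with WT within each class with edgeR's quasi-likelihood test on the summed counts, 2 libraries against 2. No kinesin gene passed an adjusted p of 0.05 in dividing progenitors (32 tested), other progenitors (34) or neurons (37), where 0.04%, 1.35% and 0.247% of all genes tested did. At an unadjusted p under 0.05, the kinesins counted were 2, 5 and 3, all higher in null, while 6.01%, 7.48% and 7.2% of all genes were higher in null at that level. DESeq2 also called 0 in each class. The log2 fold changes of the kinesins had medians of 0.06, 0.18 and 0.13, and 21 of 32, 23 of 34 and 29 of 37 were above 0, where the median of all genes was within 0.01 of 0. In other progenitors defined cell by cell by marker score, a choice made after seeing the data, 14 kinesins were above 0 and 19 below (median -0.03), and of 8 with an unadjusted p under 0.05 only 2 were higher in null.

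Kif26a had the smallest p in dividing progenitors, a 1.47-fold difference (log2 0.56, SE 0.14, edgeR adjusted p = 0.174). Kif3c followed at 1.41-fold (log2 0.50, SE 0.14, edgeR adjusted p = 0.195), its null libraries reading 23.6 and 28.8 CPM against 16.3 and 16.7 in the WT libraries. Kif21b, Kif16b and Kif13a had edgeR adjusted p-values of 0.368 to 0.505. In other progenitors Kif20b led with a 1.28-fold difference (log2 0.36, SE 0.12, edgeR adjusted p = 0.157), followed by Kif3b at 1.34-fold, Kif14 at 1.39-fold, Kif4 at 1.23-fold and Kif21b at 1.24-fold, with edgeR adjusted p-values of 0.169 to 0.251. With progenitors split cell by cell on their marker score, a choice made after seeing the data, Kif20b and Kif14 turned to -0.16 and -0.23 on the log2 scale. In neurons Kif1c, with 1.54 to 3.38 CPM in every library below the 4.86 to 7.87 CPM of free RNA, stood at 1.67-fold (log2 0.74, SE 0.27, edgeR adjusted p = 0.213), and Kif21b at 1.22-fold (log2 0.29, SE 0.12, edgeR adjusted p = 0.254). Kif11, Kif20b and Kif26a came next at 1.31-fold, 1.26-fold and 1.19-fold, with edgeR adjusted p-values of 0.264 to 0.326.

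Kif21b was the gene named in all 3 classes, and its level in both null libraries was above both WT libraries in each, as the values above show. Those levels are CPM scaled by class sums alone. With that scaling the median log2 fold change of all genes was 0.17, 0.21 and 0.14. How many other genes had both null libraries above both WT libraries was not counted. In neurons the make-up by cluster differed too: cluster 0, where Kif21b stood at 185 CPM, held 858, 625, 526 and 304 cells, and cluster 2, where it stood at 149.9 CPM, held 358, 110, 478 and 369 cells. The part of that make-up in the neuron results was not tested. For Kif11 and Kif20b in neurons, sums of the markers of dividing cells were also higher in null, at 793 and 770 CPM against 685 and 674 CPM for WT. So were the mitotic kinesins in free RNA (598 and 542 against 537 and 440 CPM). These sums are scaled by totals alone, unlike the edgeR fold changes of Kif11 and Kif20b. The part of these markers and of free RNA in the result was not tested. Kif4 is X-linked, and its 1.23-fold difference cannot be told apart from the sex of the pools. Without null replicate 1, edgeR called 7, 6 and 4 kinesins in the 3 classes, Kif21b in each (log2 0.43, 0.44 and 0.39), with Kif22 and Kif2a lower in null in dividing progenitors (log2 -0.22 and -0.25), Kif22 lower in other progenitors (-0.39) and the rest higher, where 26.5%, 26.5% and 20.8% of all genes were called. Without null replicate 2, the calls were 1 (Kif26a), 2 (Kif20b and Kif4) and 0, with 9.16%, 8.4% and 3.06% of all genes. In both cases the 1 null library left is assumed to vary like the WT libraries.

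Whether a genotype difference itself differed between classes was tested over all 12 sums with the library as a block. No kinesin passed (36 tested, 0.251% of all genes did), and 8 had an unadjusted p under 0.05, against 8.37% of all genes. Kif11 had the smallest value (edgeR adjusted p = 0.103), its log2 fold change being 0.43 larger in neurons and 0.19 larger in other progenitors than in dividing progenitors. None of the listed partners passed the test of null against WT either, with 0 of 22 adaptors, 0 of 14 spindle partners and 0 of 15 dynein genes in neurons, and the smallest edgeR adjusted p was 0.0595, among the spindle partners.

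**Figure D5:**
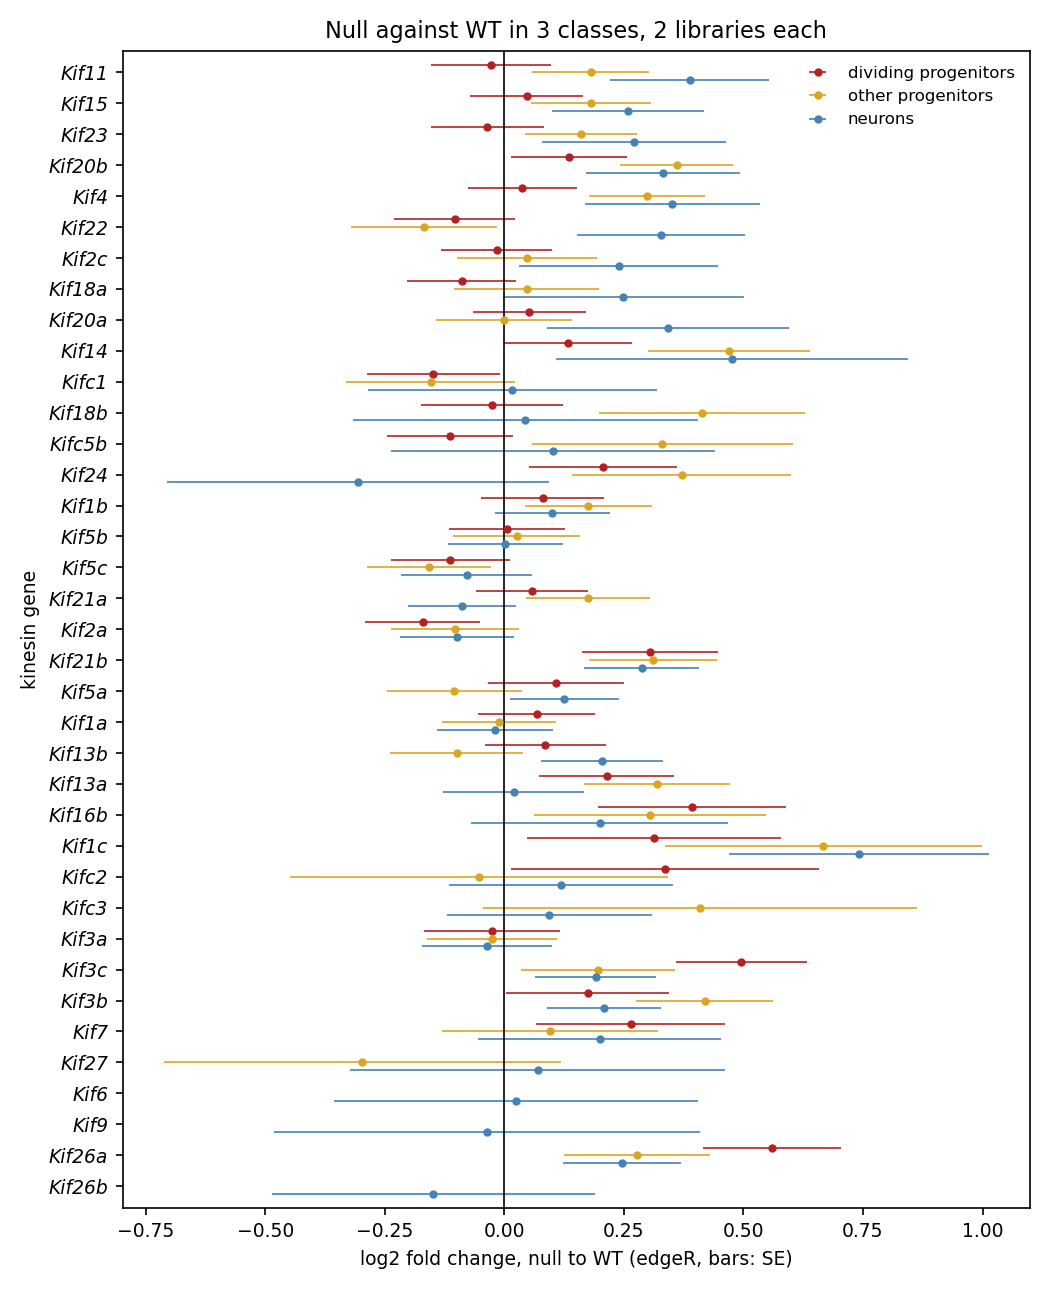
Log2 fold change of null against WT (edgeR, TMM normalization, bars 1 SE) of each kinesin gene tested in dividing progenitors, other progenitors and neurons, 2 libraries per genotype. Most points lie to the right of 0 by less than 0.5, none passed an adjusted p of 0.05, and Kif21b sits near 0.3 in all 3 classes.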

How the data were processed

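Single-cell libraries of the MGE were read from matrices of UMI counts per gene and barcode, which the authors made with Cell Ranger and deposited without a cell filter or normalization. The submitters' processing notes name Cell Ranger 5.0.1 and GRCm38, while the file headers name an earlier Cell Ranger, and whether intronic reads were counted is not given in the sources used here. Cells needed 3000 UMIs, 200 genes and at most 10% mitochondrial UMIs. The cells with the highest Scrublet scores were left out, at 0.8% per 1000 cells, because Scrublet's own threshold marked under 0.25%. Clustering used Seurat 5.3.0 (R 4.3.3) on 2000 variable genes without the kinesins, 49 principal components and a resolution of 1.4, after regression of the difference of S and G2M scores. Clusters were named from 7 neuron, 10 progenitor and 17 dividing markers. Progenitor clusters with a mean score of the dividing markers of at least 0.7, a value set after seeing the data, were called dividing. Of the progenitors, 173 to 327 cells per library had a score of their own within 0.1 of that value.

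UMI counts of each class were added up within a library, and a CPM is a count per 1000000 of that sum. Null was tested against WT with edgeR 4.0.16 (TMM, filterByExpr, quasi-likelihood F-test, two-sided, Benjamini-Hochberg adjustment over all genes tested), 2 libraries against 2. Class ratios used a prior count of 0.5 and no test. Fits were tested on simulated data. Genes named with values in every library had at least 10 CPM in their highest class and a 2-fold difference in all 4 libraries between dividing progenitors and both other classes, or between neurons and other progenitors. Kif7 was given in full after its values were seen. For genotype, the 5 genes with the smallest unadjusted p per class were named. Other genes are given by ranges, or were named after their values were seen, as were the clusters described. Partner genes are the largest mean ratios of each list, and 2 listed symbols, Kifbp and Mphosph1 (an older name of Kif20b), did not match the gene list. The members and lists were chosen with earlier results of these data known. Gene positions are from GENCODE M21 (GRCm38). Percentages of cells and CPM of single libraries carry counting error only. UMI counts per gene depend on the gene's 3′ end, so levels of different genes are not compared. Figures were drawn with matplotlib 3.10.9 in Python 3.11.15. Alternatives were library totals alone, RLE size factors, DESeq2 1.42.0, no filter on low counts, each library left out, 5000 UMIs per cell, doublets kept, no cell cycle regression, cells thinned to 3000 UMIs, a 1.5-fold rule and other sets of clusters.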

Additional observations from a re-analysis of the deposited data

How the results depend on the processing

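No paired analysis was possible because the labels carry no replicate numbers. The class counts of kinesins stayed within 1.5 times of those reported under the alternatives run, with the exceptions named next. The number of kinesins lower in other progenitors than in neurons was 8, and 5 with every cell thinned to 3000 UMIs, where 33 kinesins had enough UMIs instead of 37. Leaving out 1 library gave 0 to 1 kinesins lower in dividing than in other progenitors, the 1 coming without WT replicate 2. Splitting the progenitors per cell by marker score, leaving out the S phase clusters, adding the mixed clusters and scaling class sums by TMM were chosen after seeing the data and moved no count of kinesins between classes by over 1.5 times. The share of all genes lower in dividing than in other progenitors, 1.21% as reported, ran from 0.509% (split per cell) to 2.67% (without S phase clusters) over the cell and scaling choices.

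Kinesins past an adjusted p of 0.05 by edgeR, null against WT, were 0 in each class. In dividing progenitors 1 (Kif26a, log2 0.56, edgeR adjusted p = 0.0305, range over the alternatives 0.00489 to 0.913) passed with no filter on low counts. With library totals alone, 3 (Kif20b, Kif3b and Kif4) passed in other progenitors, where that scaling moved the median log2 fold change of all genes from 0.00 to 0.21 (0.17 in dividing progenitors and 0.14 in neurons), and 1 (Kif21a) passed the test of a difference between classes. Leaving out 1 library gave 0 to 7 in dividing progenitors, 0 to 6 in other progenitors and 0 to 4 in neurons. In other progenitors split per cell, a choice made after seeing the data, Kif20b and Kif14 turned to -0.16 and -0.23 on the log2 scale. The counts of all genes called ran, without leaving out a library, from 2 to 484 in dividing progenitors, 76 to 722 in other progenitors and 11 to 712 in neurons, against the 5, 170 and 33 behind the reported shares. The causes were not tested.

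With 2 libraries per genotype, of which 1 null library goes against its label in St18, no kinesin difference passed, up to the 1.67-fold of Kif1c. Mitotic kinesins in neurons, most of them in other progenitors, Kif1a, Kif3a, Kif3c, Kif5a, Kif5c and Kif21b in both progenitor classes and Kif1c in all classes have means below free RNA, and Kif6, Kif7, Kif9, Kif26b, Kif27 and Kifc3 rest on 73 to 669 UMIs.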
